A study of Mus musculus with 2 samples.

Results

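The genes described here encode the matrix metalloproteinases (Mmp), the tissue inhibitors of metalloproteinases (Timp), the ADAMTS proteases (Adamts) and the ADAMTS-like proteins (Adamtsl). They were chosen by symbol alone: every protein-coding mouse gene whose symbol is one of those family names followed by a number, with no use of measured values. The rule found 50 of 43346 genes with Ensembl identifiers in the deposited tables, or 50 of the 21474 that are protein-coding: 22 Mmp, 4 Timp, 19 Adamts and 5 Adamtsl genes. Mmp1a has a matching symbol, but its entry in the reference annotation is typed as a polymorphic pseudogene, so it was left out, and it is listed at 0 in both libraries.

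Total RNA of B6NCrl mouse limb at embryonic day 14.5 was sequenced in 2 libraries, replicate 2 and replicate 1, which form 1 group with no treatment or mutation in the labels. Each sample was the 4 limbs of a pup, taken on separate days, and 10 ng of RNA longer than 200 nt with added spike-ins went into each library. In the labels, donor identifier, pup number and pregnancy number are the same for both samples, and the sex is called pooled. The counts went against that sex label. The 4 Y-linked genes Ddx3y, Eif2s3y, Kdm5d and Uty had 0 expected counts in replicate 2 and 6631 in replicate 1, while Xist, transcribed from the inactive X chromosome, had 29957 in replicate 2 and 11.5 in replicate 1. The libraries were therefore taken as separate pups, and sex, collection day and library cannot be told apart in any difference between them. With 2 libraries and 1 group, values are given as mean ± SD over n = 2, and no p-values are given, since an exact sign-flip test over 2 libraries cannot go below p = 0.5.

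Matrix metalloproteinases are zinc enzymes, mostly secreted as inactive precursors, that cut collagens, gelatins, proteoglycans and other matrix and cell-surface proteins. TIMPs bind the active site and block it, and TIMP-2 also helps the membrane protease MMP14 to activate pro-MMP2 at the cell surface. ADAMTS proteases carry thrombospondin repeats and cleave proteoglycans, procollagens or microfibril proteins, whereas ADAMTS-like proteins share those repeats and lack the protease domain. In the embryonic limb, matrix turnover by these enzymes accompanies the shaping of joints, the loss of the webs between digits, the replacement of cartilage by bone and the invasion of vessels.

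The MMP genes are partly clustered and partly scattered in the genome, and these groups differed in level. Of the 22, 9 lie side by side on chromosome 9 and were near or at 0, and the 13 elsewhere include the most abundant members. RefSeq promoter windows, 250 bases before to 50 after the gene start on GRCm38.p6, are shown for 2 abundant MMP genes outside the cluster and 2 genes of the cluster, because their letters differ along the same line. Read 5′ to 3′ on the strand of the gene, Mmp14 is chr14:54431348-54431647 on the plus strand, Mmp11 is chr10:75932453-75932752 on the minus strand, Mmp13 is chr9:7272264-7272563 on the plus strand and Mmp10 is chr9:7502092-7502391 on the plus strand. Capitals mark matches on either strand to the GC box GGGCGG, to the AP-1 motif TGANTCA, to the TATA box TATAAA or to the RUNX motif AACCACA.
Mmp14: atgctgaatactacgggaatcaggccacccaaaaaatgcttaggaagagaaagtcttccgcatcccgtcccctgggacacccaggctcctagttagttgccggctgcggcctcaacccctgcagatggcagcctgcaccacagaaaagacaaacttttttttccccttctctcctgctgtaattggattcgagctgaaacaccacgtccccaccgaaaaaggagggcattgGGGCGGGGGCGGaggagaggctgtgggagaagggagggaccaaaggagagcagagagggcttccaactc
Mmp11: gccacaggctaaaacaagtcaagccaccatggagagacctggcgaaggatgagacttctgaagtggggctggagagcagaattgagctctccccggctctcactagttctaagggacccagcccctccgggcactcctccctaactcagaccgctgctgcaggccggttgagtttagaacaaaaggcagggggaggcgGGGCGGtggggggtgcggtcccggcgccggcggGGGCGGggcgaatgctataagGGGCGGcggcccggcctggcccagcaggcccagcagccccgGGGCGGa
Mmp13: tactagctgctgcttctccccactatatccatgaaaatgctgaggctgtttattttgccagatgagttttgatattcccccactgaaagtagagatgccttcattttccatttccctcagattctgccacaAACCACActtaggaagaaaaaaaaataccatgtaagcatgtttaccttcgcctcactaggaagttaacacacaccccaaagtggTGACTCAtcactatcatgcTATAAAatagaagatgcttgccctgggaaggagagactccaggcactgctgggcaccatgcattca
Mmp10: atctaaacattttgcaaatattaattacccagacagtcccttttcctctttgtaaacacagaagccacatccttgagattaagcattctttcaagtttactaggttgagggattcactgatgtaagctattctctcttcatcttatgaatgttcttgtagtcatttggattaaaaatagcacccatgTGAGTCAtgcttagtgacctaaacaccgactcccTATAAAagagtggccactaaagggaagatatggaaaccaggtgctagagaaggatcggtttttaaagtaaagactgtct

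The Mmp14 window held 2 GC boxes and the Mmp11 window 4, and neither held an AP-1, TATA or RUNX match. The Mmp13 window held an AP-1 match 35 bases before the start, a TATA match 16 bases before it and a RUNX match 119 bases before it. The Mmp10 window held an AP-1 match 63 bases and a TATA match 29 bases before the start. Neither of these cluster windows held a GC box. A match is a description of the letters, not a site in use.

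The table had a window for 35 of the 50 members (38 windows, as 3 genes have 2) and none for 15, Mmp2 and Mmp9 among them. The AP-1 motif was in 7 of 11 windows of the chromosome 9 cluster (63.6%) and in 0 of 9 windows of MMP genes elsewhere, against 7.81% of all 32851 windows. The TATA motif was in 8 of 11 cluster windows (72.7%) and 1 of 9 elsewhere (11.1%), against 13.6% of all. The GC box was in 0 of 11 cluster windows and 7 of 9 elsewhere (77.8%), against 35.7% of all. The RUNX motif was in 3 cluster windows (27.3%), those of Mmp13, Mmp27 and Mmp7, and in 5.27% of all windows. GC content had a median of 40.7% in the cluster windows, 63.3% in the windows of the other MMP genes and 52.7% in all windows. Of the 22 windows of members averaging at least 1 TPM, 19 held a GC box, 2 a TATA match and none an AP-1 match. Of the 16 windows of members under 1 TPM, 3 held a GC box, 9 a TATA match and 7 an AP-1 match. All 11 cluster windows are among these 16. They include every window with an AP-1 match and none with a GC box, so the AP-1 split by level restates cluster membership. Cluster windows come from neighbouring copies of one gene family and are not independent of each other, and the motifs were chosen after the levels were known.

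**Figure D1:**
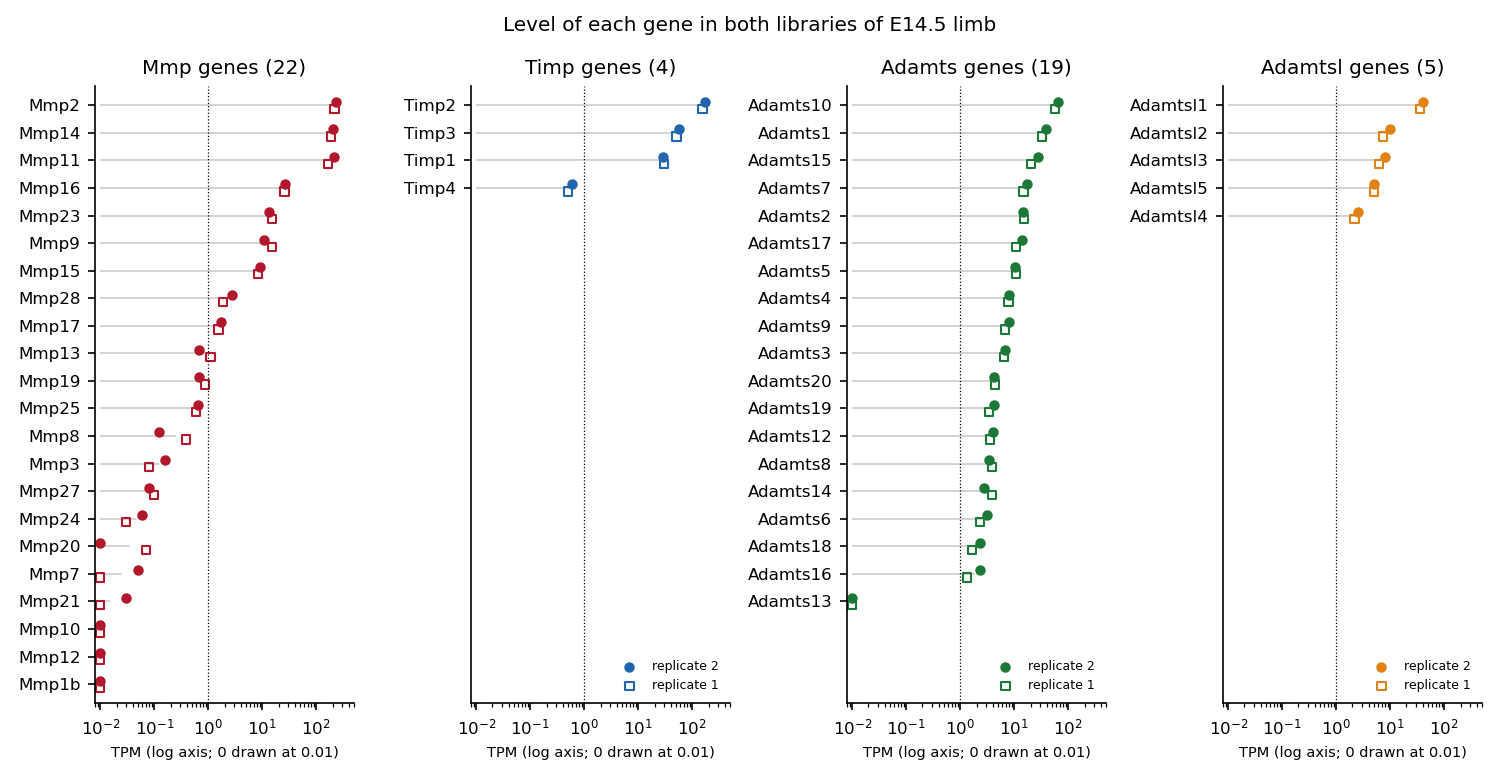
Level of each of the 50 genes in TPM (log axis, 0 drawn at 0.01) in replicate 2 (filled circles) and replicate 1 (open squares), by family and ordered by mean; the dotted line marks 1 TPM and the grey lines end at the mean. Mmp2, Mmp14, Mmp11 and Timp2 have the 4 highest means, and most Adamts genes lie between 1 and 50 TPM.

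Levels were read as TPM, transcript abundances scaled by length and to one total per library, so they can be set side by side between genes. With detection taken as 1 TPM or more in both libraries, 35 of the 50 members were detected (70.0%), beside 61.4% of all protein-coding genes. By family, 9 of 22 Mmp, 3 of 4 Timp, 18 of 19 Adamts and 5 of 5 Adamtsl genes were detected. A mean of 50 TPM or more was seen in 6 members, 11 had 10 to 50 TPM, 18 had 1 to 10 TPM, 11 were above 0 and under 1 TPM, and 4 were listed at 0 in both libraries. The members together held 1283 TPM in replicate 2 and 1144 TPM in replicate 1. The plot of levels by family shows how unequal the shares were: Mmp2, Mmp14 and Mmp11 held 50.6% of the members' summed TPM and 89.9% of the MMP sum, and the 10 highest members held 84.2%. In RNA of whole limbs, fewer cells of a type and less RNA per cell cannot be told apart.

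The gelatinases, which cut denatured collagen and basement-membrane collagen, were far apart in level. Mmp2 (gelatinase A) had 233 TPM in replicate 2 and 218 TPM in replicate 1, the highest mean of all members at 226 ± 10.9 TPM. Mmp9 (gelatinase B, an enzyme of osteoclasts and of vessel invasion into cartilage) had 10.6 TPM in replicate 2 and 15.0 TPM in replicate 1. Within a library, Mmp2 stood above Mmp9 by a log2 ratio of 4.15 ± 0.42, or 17.7-fold. This was well past the library spread of 0.46, meaning that 95% of the 500 genes nearest in level differed by less than this between the libraries on the log2 scale.

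The collagenases, which make the opening cut in fibrillar collagen, were low. Mmp13, the collagenase of hypertrophic cartilage and bone, had 0.67 TPM in replicate 2 and 1.10 TPM in replicate 1, from 37 expected counts in replicate 2 and 65 in replicate 1. Mmp8, the neutrophil collagenase, had 0.12 TPM in replicate 2 and 0.39 TPM in replicate 1, and Mmp1b was listed at 0 in both. All of these values lie below the level of either gelatinase in the same library. Mmp13 was below Mmp9 by a log2 ratio of -3.73 ± 0.10, but 95% of genes at the level of Mmp13 differed by up to 4.15 between the libraries, so this ratio did not pass the library spread.

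Stromelysin-3, Mmp11, an enzyme of stromal cells that is activated inside the cell by furin, was the third most abundant member. It had 216 TPM in replicate 2 and 165 TPM in replicate 1, a mean of 191 ± 36.2 TPM. Its values overlapped those of Mmp14 above it and Timp2 below it, so its place in the order is not fixed. The other stromelysins were near 0: Mmp3 had 0.16 TPM in replicate 2 and 0.08 TPM in replicate 1, and Mmp10 was listed at 0. Matrilysin Mmp7, enamelysin Mmp20, metalloelastase Mmp12 and the less studied Mmp27 and Mmp21 each stayed at 0.10 TPM or less in both libraries. Mmp28 (epilysin) had 2.73 TPM in replicate 2 and 1.86 TPM in replicate 1, and Mmp19 had 0.66 TPM in replicate 2 and 0.87 TPM in replicate 1.

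Among the membrane-bound MMPs, Mmp14 (MT1-MMP), the activator of pro-MMP2 and itself a collagenase, led with 205 TPM in replicate 2 and 188 TPM in replicate 1. Mmp14 was below Mmp2 by a log2 ratio of only -0.20 ± 0.02, inside the library spread of 0.27, although the values of both genes did not overlap. Mmp16 (MT3-MMP) had 26.7 TPM in replicate 2 and 26.0 TPM in replicate 1, and Mmp15 (MT2-MMP) had 9.00 TPM in replicate 2 and 8.37 TPM in replicate 1. Mmp24 (MT5-MMP), a gene of neurons, was at 0.06 TPM or less. Of the forms held by a lipid anchor, Mmp17 had 1.72 TPM in replicate 2 and 1.54 TPM in replicate 1, and Mmp25 had 0.65 TPM in replicate 2 and 0.60 TPM in replicate 1. Mmp23, held by an amino-terminal anchor, had 13.3 TPM in replicate 2 and 15.2 TPM in replicate 1. Mmp14 alone held 79.2% of the membrane-bound sum, and the sum of the 15 secreted MMPs was above that of the 7 membrane-bound ones by a log2 ratio of 0.80 ± 0.08, or 1.74-fold.

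Of the inhibitors, Timp2 was the most abundant, with 171 TPM in replicate 2 and 155 TPM in replicate 1. Timp3, which binds the matrix and also inhibits ADAMTS and ADAM proteases, had 57.7 TPM in replicate 2 and 51.2 TPM in replicate 1. Timp1, on chromosome X, had 29.3 TPM in replicate 2 and 30.1 TPM in replicate 1. These 3 genes did not overlap, and each step was past the library spread: the log2 ratio was -1.58 ± 0.02 for Timp3 over Timp2 and -0.87 ± 0.15 for Timp1 over Timp3. Timp4, the inhibitor best known from heart, had 0.60 TPM in replicate 2 and 0.50 TPM in replicate 1, from 17 expected counts in replicate 2 and 15 in replicate 1. Timp2 held 65.9% of the TIMP sum.

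Set against the proteases, Timp2 was below Mmp14 by a log2 ratio of -0.27 ± 0.01, which is 0.83-fold and barely past the library spread of 0.262. Without replicate 1 it was -0.259, inside that spread, so the call rests on replicate 1. The MMP sum was 721 TPM in replicate 2 and 643 TPM in replicate 1, and the TIMP sum was 259 TPM in replicate 2 and 237 TPM in replicate 1. The MMP sum was thus higher by a log2 ratio of 1.46 ± 0.03, or 2.75-fold, with 1.48 in replicate 2 and 1.44 in replicate 1. RNA levels do not give the amount of active enzyme, which depends on activation of the precursor and on inhibitor protein.

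**Figure D2:**
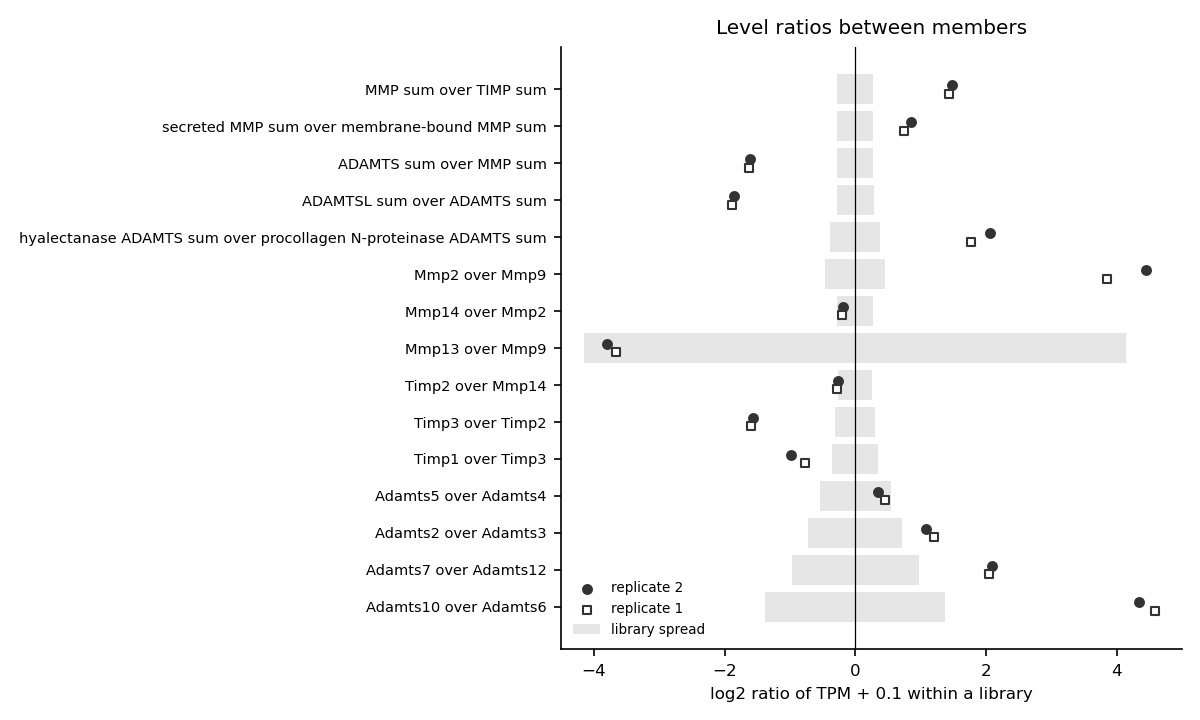
Log2 ratio between the levels of members within each library (TPM + 0.1), for replicate 2 (filled circles) and replicate 1 (open squares); grey bars give the library spread, the log2 difference between libraries that 95% of the 500 genes nearest in level stayed under, for the member with the wider spread. The mean of both libraries lies outside the bar for 12 of 15 ratios, and inside it for Mmp14 over Mmp2, Mmp13 over Mmp9 and Adamts5 over Adamts4; for Timp2 over Mmp14 the replicate 2 point alone is just inside it.

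The hyalectanases, ADAMTS proteases that cut aggrecan, versican and related proteoglycans, numbered 7, and all were detected. Adamts1 had 38.3 TPM in replicate 2 and 33.1 TPM in replicate 1. Adamts15 had 28.0 TPM in replicate 2 and 20.5 TPM in replicate 1. These 2 genes held the largest part of a group sum of 100.5 TPM in replicate 2 and 87.0 TPM in replicate 1. The aggrecanases Adamts5 and Adamts4 were lower and close together: Adamts5 had 10.5 TPM in replicate 2 and 10.7 TPM in replicate 1, and Adamts4 had 8.16 TPM in replicate 2 and 7.79 TPM in replicate 1. Their log2 ratio of 0.41 ± 0.07 lay inside the library spread of 0.54. Adamts9, Adamts20 and Adamts8 had means of 7.32 ± 0.856, 4.34 ± 0.057 and 3.62 ± 0.361 TPM. RNA of substrates was present too: versican (Vcan) had 104 TPM in replicate 2 and 87.8 TPM in replicate 1, and aggrecan (Acan) had 29.9 TPM in replicate 2 and 33.8 TPM in replicate 1.

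The procollagen N-proteinases, which remove the amino-terminal propeptide of fibrillar procollagens, were led by Adamts2 with 14.6 TPM in replicate 2 and 15.0 TPM in replicate 1. Adamts3 had 6.83 TPM in replicate 2 and 6.45 TPM in replicate 1, so that Adamts2 was higher by a log2 ratio of 1.14 ± 0.08 (2.21-fold), past the library spread of 0.72. On protein-coding transcripts alone the log2 ratio was 0.71, inside that spread. Adamts14 had 2.70 TPM in replicate 2 and 3.91 TPM in replicate 1. The 3 genes together had 24.1 TPM in replicate 2 and 25.3 TPM in replicate 1. The hyalectanase sum was above this by a log2 ratio of 1.92 ± 0.20, or 3.78-fold. The procollagen RNAs stood far above their processing enzymes, as Col3a1 had 2084 TPM in replicate 2 and 2388 TPM in replicate 1.

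Adamts7 and Adamts12, which cleave cartilage oligomeric matrix protein, differed by a log2 ratio of 2.07 ± 0.03: Adamts7 had 17.2 TPM in replicate 2 and 14.9 TPM in replicate 1, and Adamts12 had 3.98 TPM in replicate 2 and 3.53 TPM in replicate 1. On protein-coding transcripts alone that log2 ratio was 1.20. Adamts10, which acts at fibrillin microfibrils and is mutated in a human short-stature syndrome, had 65.4 TPM in replicate 2 and 57.2 TPM in replicate 1, the highest of the Adamts genes. Its relative Adamts6 had 3.13 TPM in replicate 2 and 2.29 TPM in replicate 1, so that Adamts10 was 22.1-fold higher (log2 ratio 4.46 ± 0.17), but by a log2 ratio of 2.14 on protein-coding transcripts alone. Most of the Adamts10 signal was assigned to transcripts that are not typed as coding, as described below. Adamts17 had 13.8 TPM in replicate 2 and 10.8 TPM in replicate 1. Adamts19, Adamts18 and Adamts16 had means of 3.79 ± 0.566, 2.02 ± 0.502 and 1.86 ± 0.721 TPM. Adamts13, the liver-made protease that cuts von Willebrand factor, was listed at 0 in both libraries. A count of 0 allows up to 3 counts, which is 0.0962 CPM (gene counts scaled to the library total) in replicate 2 and 0.0926 CPM in replicate 1, and this covers counting error only.

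The ADAMTS-like genes were all detected. Adamtsl1 (punctin) led with 40.0 TPM in replicate 2 and 35.1 TPM in replicate 1, and held 62.0% of the family's sum. Adamtsl2, which like Adamts10 belongs to the microfibril-linked genes mutated in human short-stature syndromes, had 9.95 TPM in replicate 2 and 7.43 TPM in replicate 1. Adamtsl3, Adamtsl5 and Adamtsl4 had means of 7.07 ± 1.12, 4.93 ± 0.028 and 2.34 ± 0.226 TPM. The family sum was below the ADAMTS sum by a log2 ratio of -1.88 ± 0.02, and the ADAMTS sum in turn was below the MMP sum by -1.62 ± 0.02. On protein-coding transcripts alone these log2 ratios were -2.12 and -2.10. Among the 35 members averaging at least 1 TPM, 22 had values that overlapped those of the next member in the order. Close neighbours in the order should therefore not be ranked.

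**Figure D3:**
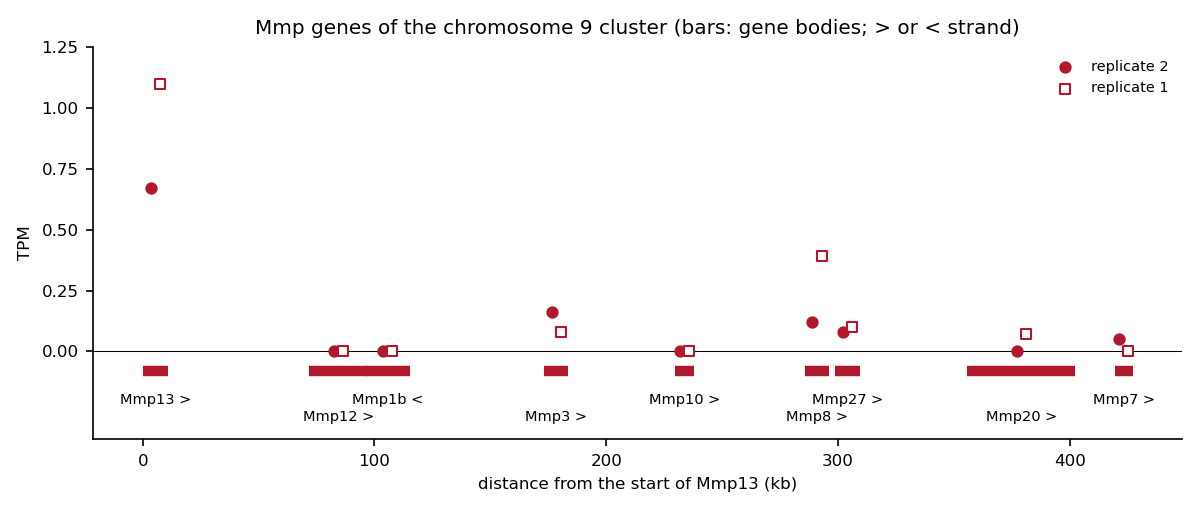
TPM of the 9 Mmp genes of the chromosome 9 cluster in replicate 2 (filled circles) and replicate 1 (open squares) against distance from the start of Mmp13 in kb, with gene bodies as bars and strand as arrows. Mmp13 at the left end has the highest value in each library, and Mmp12, Mmp1b and Mmp10 are at 0 in both libraries.

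The chromosome 9 cluster spans 427 kb (chr9:7272514-7699585, GRCm38) and holds Mmp13, Mmp12, Mmp1b, Mmp3, Mmp10, Mmp8, Mmp27, Mmp20 and Mmp7 in that order, with no other protein-coding gene between them. The 9 genes together had 53 expected counts and 1.08 TPM in replicate 2, and 98 expected counts and 1.74 TPM in replicate 1. This is 0.207% of the MMP sum. Mmp13 held the largest part, and none of the 9 had a mean of 1 TPM, as the plot along the cluster shows. The 13 MMP genes elsewhere had a median of 8.69 TPM, and 9 of them had a mean of 1 TPM or more, against a median of 0.035 TPM in the cluster. Counts this small do not fix an order within the cluster: Mmp8, for example, had 6 expected counts in replicate 2 and 21 in replicate 1.

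Neighbouring ADAMTS genes did not share a level. Adamts1 and Adamts5 lie 53.1 kb apart on the same strand of chromosome 16, and their means were 35.7 ± 3.70 and 10.6 ± 0.198 TPM. Adamts15 and Adamts8 lie 20.1 kb apart on opposite strands of chromosome 9, with 24.2 ± 5.30 and 3.62 ± 0.361 TPM. Adamts13, at 0, lies 69.8 kb from Adamtsl2, at 8.69 ± 1.78 TPM, with 3 other coding genes between them.

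Timp1, Timp3 and Timp4 each lie on the opposite strand inside a synapsin gene, and these are the 3 members wholly inside another protein-coding gene. The synapsins, which coat synaptic vesicles of neurons, were far below the 2 abundant TIMPs: Syn1 had 0.18 TPM in replicate 2 and 0.17 TPM in replicate 1, and Syn3 had 2.24 TPM in replicate 2 and 1.51 TPM in replicate 1. Syn2 had 0.74 TPM in replicate 2 and 0.60 TPM in replicate 1, which is about the level of Timp4. The sources used here do not give the strand of the libraries, so reads of Timp4 and Syn2 cannot be told apart where their exons meet. In all, 14 members overlapped another protein-coding gene. The partner was the more abundant gene for Mmp19 (Tmem198b had 14.4 TPM in replicate 2 and 11.6 TPM in replicate 1) and Mmp24 (BC029722 had 9.31 TPM in replicate 2 and 10.9 TPM in replicate 1), so the values of these proteases are uncertain.

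**Figure D4:**
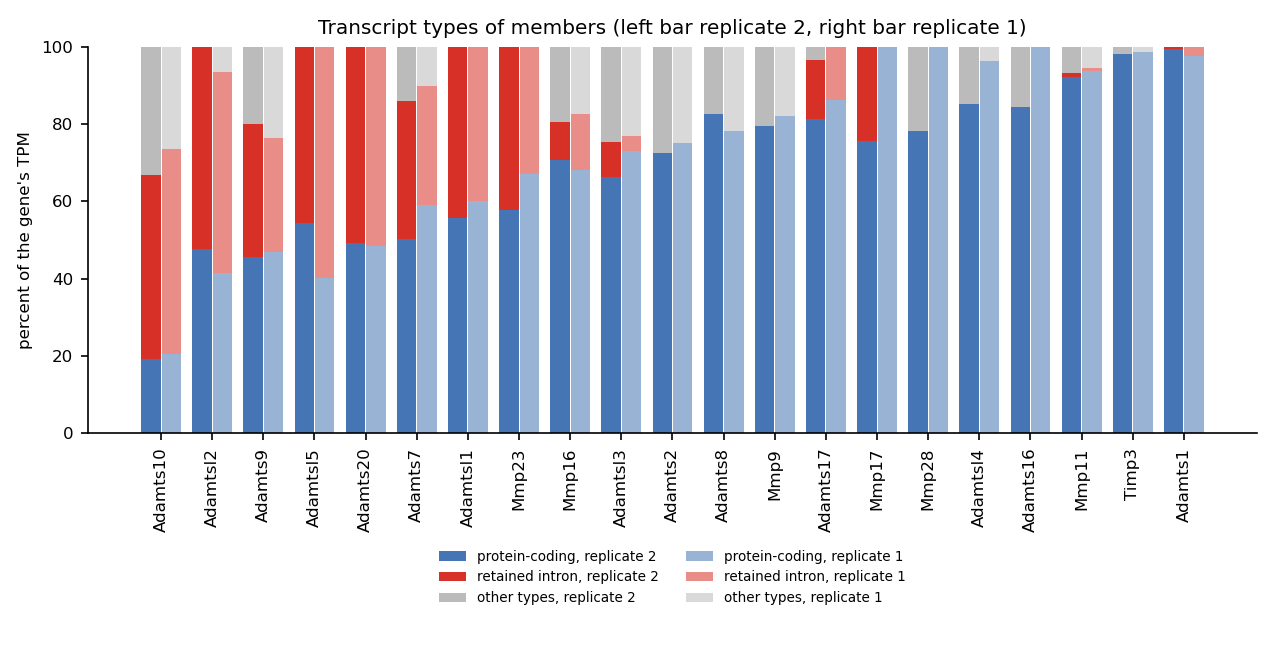
Percent of each gene's TPM assigned to transcripts typed protein-coding (blue), retained intron (red) or other (grey) in the reference annotation, for members averaging at least 1 TPM that have some non-coding share; left bars are replicate 2 and right bars replicate 1. Adamts10 at the left has 19.3% of its TPM on protein-coding transcripts in replicate 2 and 20.4% in replicate 1.

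Transcript tables add a second view of the same reads. Among the 35 members averaging at least 1 TPM, 26 had more than 1 transcript in the tables, and in 23 of these the leading transcript, the one with the largest percent of the gene's TPM, was the same in both libraries. It differed for Adamtsl4, Adamtsl5 and Timp1. In Timp1 a pair of coding transcripts were almost equal, and the longer of them held 54.9% in replicate 2 and 49.8% in replicate 1. The leading transcript was typed protein-coding in 32 of the 35 members and held 90% or more of the TPM in 15. These 15 include the 9 members with only 1 transcript, whose leading share was fixed in advance.

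For some ADAMTS genes a large share of the TPM was assigned to transcripts that retain an intron or are typed for nonsense-mediated decay. Adamts10 had 19.3% of its TPM on protein-coding transcripts in replicate 2 and 20.4% in replicate 1. Retained-intron transcripts of the gene held 47.6% in replicate 2 and 53.1% in replicate 1. Its leading transcript is typed for nonsense-mediated decay and held 26.9% in replicate 2 and 25.1% in replicate 1. Adamtsl2, Adamts9, Adamts20 and Adamtsl5 also had coding means under 50%, with 44.6%, 46.2%, 48.9% and 47.3%. Retained-intron transcripts held 10% or more of the TPM in 11 members, as the plot of transcript types shows. Mmp2, Mmp14, Timp1, Timp2 and Timp3 have no transcript typed as retained intron, so none could be assigned to them.

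Counting protein-coding transcripts alone, a choice made after the data were seen, gave 27 of the 35 members averaging at least 1 TPM another place in the order, and 7 moved by 4 places or more. Adamts10 moved furthest: it had 12.6 TPM in replicate 2 and 11.7 TPM in replicate 1 and stood at place 11 instead of 5. Adamtsl1 had 22.3 TPM in replicate 2 and 21.1 TPM in replicate 1 and stood at place 9 instead of 7. Adamts7 stood at 17 instead of 12, Adamtsl5 at 29 instead of 24, Adamts20 at 30 instead of 25, Adamtsl2 at 22 instead of 18 and Adamts9 at 25 instead of 21, while Adamts5 stood at 13 instead of 17. The first 4 places, held by Mmp2, Mmp14, Mmp11 and Timp2, were as before, and Mmp11 had 199.9 TPM in replicate 2 and 155 TPM in replicate 1. Total RNA holds unspliced precursors, and their part in the retained-intron values was not tested.

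**Figure D5:**
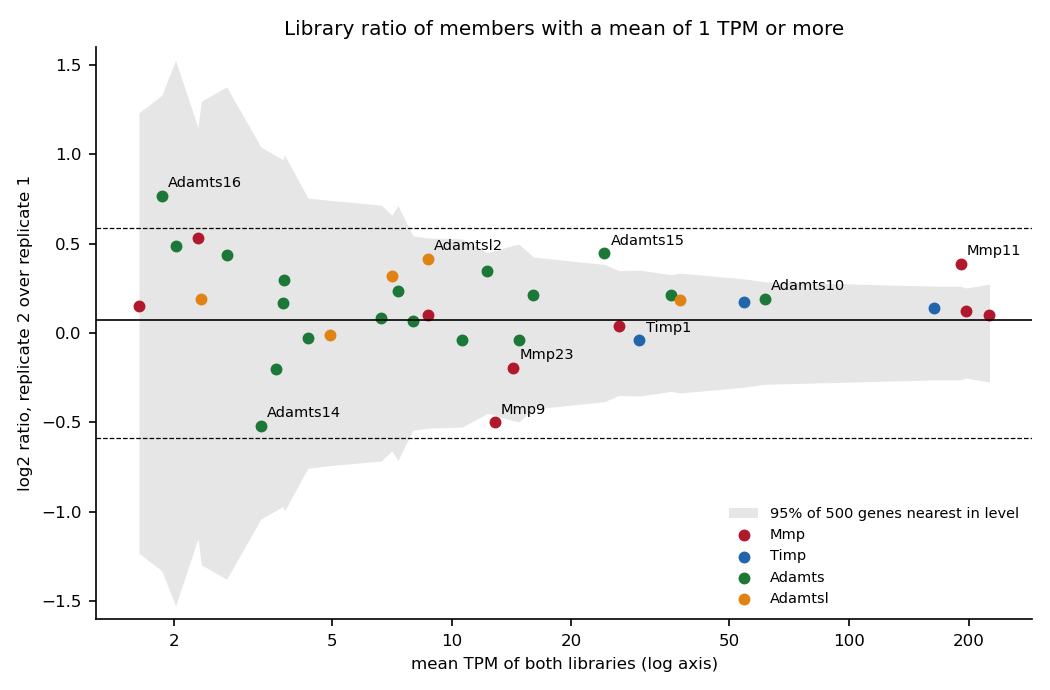
Log2 ratio of replicate 2 over replicate 1 (TPM + 0.1) against mean TPM (log axis) for the 35 members averaging at least 1 TPM; the grey band is the library spread at each level, dashed lines mark 1.5-fold and the solid line is the median of all annotated genes at 0.07. Mmp11 and Adamts15 lie above the band and Mmp9 below it, and Adamts16 lies past the 1.5-fold line inside the band.

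Differences between the libraries were set beside those of all genes. Of the 35 members averaging at least 1 TPM, 1 was higher in replicate 2 by 1.5-fold or more and 0 were lower by as much, beside 4.00% higher and 2.95% lower of 15307 annotated genes under the same filter. At 2-fold there were 0 in either direction, beside 1.44% higher and 1.13% lower of all. The one past the fold was Adamts16, with 2.37 TPM in replicate 2 and 1.35 TPM in replicate 1, a log2 ratio of 0.77 inside the library spread of 1.33 at its low level. The median log2 ratio of replicate 2 over replicate 1 was 0.17 over the members and 0.07 over all those genes, and 26 members lay above 0 (74.3%) and 9 below, beside 65.4% of all those genes above 0. The members held 0.275% of all gene counts in replicate 2 and 0.254% in replicate 1, and those totals were 31170323 expected counts in replicate 2 and 32384779 in replicate 1.

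Outside the library spread of genes at their own level lay 3 members, beside 5.08% of all genes. Mmp11 had a log2 ratio of 0.39 against a spread of 0.26. Adamts15 had 0.45 against 0.38, and Mmp9 had -0.50 against 0.46. In 23 of the 35 members the interval of the log2 ratio of counts, which covers counting error only, did not hold 0, beside 41.7% of all genes under the same filter. In 18 of them the ratio was above 0 and in 5 below, beside 25.2% and 16.4% of all genes. These intervals narrow as counts rise, and genes were not matched on counts here. Each of these differences has 1 library on either side and no replicate check.

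Mmp9, Mmp13 and Mmp8, proteases of osteoclasts, hypertrophic cartilage and neutrophils, had lower values in replicate 2. None was called at 1.5-fold in TPM: Mmp9 did not reach it, and Mmp13 and Mmp8 were below the 1 TPM filter. On counts scaled by TMM or by DESeq2 size factors, Mmp9 was lower past 1.5-fold. Of 6 other osteoclast markers, Ctsk and Acp5 had a mean of 1 TPM or more, and the list summed to 77.3 TPM in replicate 2 and 99.1 TPM in replicate 1. Ctsk, the collagen-cutting cathepsin of osteoclasts, had 63.3 TPM in replicate 2 and 80.0 TPM in replicate 1. The 5 other hypertrophic cartilage markers summed to 289.7 TPM in replicate 2 and 392 TPM in replicate 1. Ibsp and Spp1 held most of that sum, while Col10a1 had 12.0 TPM in replicate 2 and 13.6 TPM in replicate 1. The log2 ratios of Ibsp (-0.43), Spp1 (-0.56) and Ctsk (-0.34) were past their library spreads of 0.26, 0.28 and 0.28. Those of Acp5, Alpl, Col10a1 and Ihh were inside theirs. No gene of either list averaging at least 1 TPM passed 1.5-fold. Under that filter, Ocstamp was lower past 1.5-fold, with 0.08 TPM in replicate 2 and 0.21 TPM in replicate 1. Not all were lower: Dcstamp and Calcr, also under the filter, and Ihh had higher values in replicate 2. Ihh had 5.58 TPM there and 4.61 TPM in replicate 1. Of 9 leukocyte markers, which summed to 189 TPM in replicate 2 and 239 TPM in replicate 1, 2 were lower past 1.5-fold, S100a8 and S100a9. These neutrophil genes had 8.27 and 7.45 TPM in replicate 2, against 35.0 and 22.9 TPM in replicate 1. Mpo, also of the neutrophil lineage, had 1.29 TPM in replicate 2 and 1.32 TPM in replicate 1. Elane, of the same lineage but under the 1 TPM filter, was lower, with 0.51 TPM in replicate 2 and 0.95 TPM in replicate 1. The part of these cell types in the protease values was not tested. Muscle and red-blood-cell markers were also lower in replicate 2, with a muscle sum of 1644 TPM in replicate 2 and 2429 TPM in replicate 1 and a red-blood-cell sum of 17221 TPM in replicate 2 and 25915 TPM in replicate 1. The fibroblast sum was 6548.7 TPM in replicate 2 and 7289.5 TPM in replicate 1. Epidermis markers summed to 1214 TPM in replicate 2 and 1410 TPM in replicate 1. Other sums were higher in replicate 2: tendon had 398 TPM against 375 TPM in replicate 1, endothelium 114 against 110 and cartilage 1030 against 1019. The defining limb markers were present, since Col2a1 of cartilage had 587 TPM in replicate 2 and 584 TPM in replicate 1.

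Genes linked to these proteases were described from a list of activators, a list of related proteases, inhibitors and other matrix genes, and a list of substrates. Of 18 activators and cell-surface partners, 15 were detected, led by Bsg (an inducer of MMPs on the cell surface) at 626 ± 9.59 TPM, Fn1 at 184 ± 13.1 TPM and Serpine2 at 127 ± 10.5 TPM. Reck, a membrane-anchored MMP inhibitor, had 37.6 TPM in replicate 2 and 38.5 TPM in replicate 1, a level between those of Timp3 and Timp1. Furin, which cuts the propeptides of Mmp11 and Mmp14, had 15.2 TPM in replicate 2 and 13.1 TPM in replicate 1, and plasminogen (Plg), made in liver, was listed at 0. None of the list was higher in replicate 2 past 1.5-fold and 1 was lower, the urokinase receptor Plaur, with 2.95 TPM in replicate 2 and 5.63 TPM in replicate 1.

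The list of 30 related proteases, inhibitors and other matrix genes had 27 detected genes. It was led by the matrix gene Sparc at 1653 ± 113 TPM, the cysteine-protease inhibitor Cst3 at 413 ± 22.3 TPM and Ctsd at 268 ± 10.8 TPM. The procollagen C-proteinase Bmp1, which trims the other end of procollagen, had 77.0 TPM in replicate 2 and 67.9 TPM in replicate 1, above each of the N-proteinases. None of that list was higher past 1.5-fold and 1 was lower, Dpp4, with 3.12 TPM in replicate 2 and 5.36 TPM in replicate 1. The list of 22 substrates had 20 detected genes, led by Col3a1 at 2236 ± 215 TPM, Col1a1 at 2075 ± 191 TPM and Col1a2 at 1447 ± 94.9 TPM. None of the 20 averaging at least 1 TPM passed 1.5-fold in either direction. Ncan, under that filter, was higher past 1.5-fold, with 0.37 TPM in replicate 2 and 0.19 TPM in replicate 1. The median log2 ratio was 0.04 for the activators, 0.08 for the list led by Sparc and -0.04 for the substrates. It was 0.17 for the members averaging at least 1 TPM. The lists are described, not tested.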

How the data were processed

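Gene and transcript tables of 2 libraries were used. Per the labels and sample notes, they were made on mm10 with GENCODE M4. Aligner, quantifier and strand setting are each not given in the sources used here. Deposited by the authors were expected counts (estimated, not whole), TPM, FPKM and, for transcripts, the percent of a gene's TPM, with lengths, posterior mean values and interval bounds. Deposited totals were 32879425 expected counts in replicate 2 and 34193161 in replicate 1, spike-ins included, and limit the precision of low genes.

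Members were matched by Ensembl identifier without version to GENCODE M21 on GRCm38. The members, lists, ratios and motifs were chosen with earlier results of these data known. Named genes were all members, the 3 most abundant genes of each related list, and genes that a member's sentence refers to. Ratios used log2(TPM + 0.1), so low genes' changes are understated. The library filter was a mean of 1 TPM and the call 1.5-fold, on 1 library a side, with no test. Counting intervals were exact binomial at 95%. Calculations used pandas 2.3.3 and numpy 2.4.6 with scipy 1.17.1 in Python 3.11.15, and figures used matplotlib 3.10.9. Scaling alternatives used edgeR 4.0.16 and DESeq2 1.42.0 in R 4.3.3 on rounded expected counts, for factors alone. The ratio calculation was tested on simulated data. Protein motifs were planned but not analysed here. Promoters are from RefSeq on GRCm38.p6.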

Additional observations from a re-analysis of the deposited data

How the results depend on the processing

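With 2 libraries of 1 group, no test between groups was made. No paired analysis was possible because there is 1 group. Detection of members ranged from 23 at a minimum of 5 TPM to 39 at 0.5 TPM, against 35 at 1 TPM, and a single library gave 35 or 36. Members higher in replicate 2 numbered 2 with spike-in scaling, 2 with no filter, 0 with a pseudocount of 1, 0 at a mean of 5 TPM or more and 0 at 2-fold, against 1. Of all genes, 3.09%, 7.65%, 2.23%, 1.13% and 1.44% were higher under these settings, against 4.00%. The filter left 35 members, but 50 with no filter and 23 at a mean of 5 TPM or more. Members lower in replicate 2 numbered 2 with TMM, 2 with DESeq2 size factors and 3 with no filter, against 0. With either TMM or DESeq2 size factors, the 2 were Mmp9 and Adamts14. Of all genes, 3.24%, 3.38% and 6.09% were lower under these settings, against 2.95%. The median ratio of members stayed above 0, from 0.05 with DESeq2 size factors to 0.17, while that of all genes was -0.011 with DESeq2 size factors and 0.07 in TPM. The count of 15 level ratios past the library spread was 12. It was 11 without replicate 1, which lost Timp2 over Mmp14 (-0.259), and 12 without replicate 2. It was 11 on protein-coding transcripts alone, an alternative added after the data were seen, which lost Adamts2 over Adamts3 (0.71). None of the 15 ratios changed sign in any of 105 recalculations. Each ratio had the same sign in both libraries, so the pseudocount, FPKM and single-library settings could not change it. Only posterior mean values and protein-coding transcripts alone could have done so. On coding transcripts Adamts10 over Adamts6 was 2.14, against 4.46, and Adamts7 over Adamts12 was 1.20, against 2.07. Mmp13 over Mmp9 was -2.87 with a pseudocount of 1, against -3.73. The leading transcript was the same in 33 of 35 members with posterior mean values, against 32.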
